A study of Mus musculus with 20 samples.

Results

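Genes that bring fatty acids into cells and burn them in mitochondria were followed in skeletal muscle and skin of the mouse hindlimb after irradiation. The set held 34 of the 35579 genes in the files. It was drawn up as a list of genes by their known roles, with no measured value in the rule, though earlier results of these data were known. All 34 were abundant enough to be tested in both tissues. In the working muscle fibre, lipoprotein lipase frees fatty acids in the capillary, CD36 and fatty acid binding proteins carry them in, acyl-CoA synthetases activate them and the carnitine shuttle moves them into the mitochondrion. There the beta-oxidation spiral shortens them step by step and passes electrons to the respiratory chain through the electron transfer flavoprotein. The nuclear receptors PPARα and PPARδ, with the coactivator PGC-1α, switch these genes on together during fasting and endurance exercise. Slow, oxidative fibres hold more of this machinery than fast, glycolytic ones.

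Wild-type C57BL/6J mice received 35 Gy of electrons to the left hindlimb, either as FLASH, which delivers the dose at an ultra-high rate, or as CONV, at the conventional rate. Sham mice were not irradiated. Whole skin and muscle were taken after 70 days, and the labels used here give neither age nor sex. Sham and CONV had 3 libraries in each tissue and FLASH had 4, which makes 20. Whether every library came from its own animal is not stated, and p-values here reflect only how far these samples scattered, which may be technical. Batch 1 was all of the skin and batch 2 all of the muscle, so that a difference between tissues cannot be told apart from one between batches. In bulk tissue, fewer cells of a type and less RNA per cell cannot be told apart either.

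Muscle libraries held 10198699 to 12336479 estimated counts, of which the 10 most abundant genes took 60% to 65.1%, and skin libraries held 24396463 to 33250762. Fast-fibre genes defined the muscle samples, with Myh4, the fast IIb myosin heavy chain, at 25274 to 50266 CPM, which scales counts to a common library size. Keratinocyte genes summed to 8724 to 47548 CPM in skin. In 7 records (2 of skin, 5 of muscle) the deposited file carried the library name of another record, always among sham and FLASH. By library name, the sham muscle files were those recorded as sham 1, FLASH 2 and FLASH 3. The FLASH muscle files by name were those recorded as sham 2, FLASH 1, sham 3 and FLASH 4. In skin, the files recorded as sham 3 and FLASH 1 carried each other's group name. Groups below follow the records, and values with files assigned by library name are given beside them. The CONV files carried their own names, so a comparison of the 3 CONV libraries with the other 7 was the same under both assignments. Libraries are numbered below by record unless the library name is stated.

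The muscle carried the whole pathway, led by Fabp3 and Pdk4. On the TPM scale, which corrects for transcript length, Fabp3, the heart and muscle fatty acid binding protein, had the highest median of the 34, at 177 TPM (86.7 to 504 over 10 libraries). Pdk4, the kinase that shuts pyruvate out of the mitochondrion and so favours fat as fuel, came next at 171 TPM (40.2 to 279). Acadm, the medium-chain acyl-CoA dehydrogenase, stood at 111 TPM (76.9 to 178). Ranges of neighbours in this order overlapped widely. At the low end were Ppara (3.30 TPM), the droplet protein gene Plin5 (3.22 TPM) and Angptl4 (1.69 TPM), whose product inhibits lipoprotein lipase. The lowest of them rested on few reads: Angptl4 on 9 to 93 estimated counts per muscle library, Plin5 on 18 to 107, Ppara on 23 to 138 and Ucp2 on 31 to 201.

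Related genes stood in another balance in skin. Cpt1b, the muscle form of the enzyme that admits fatty acids to the carnitine shuttle, dominated in muscle, where the TPM ratio of Cpt1a (the liver and general form) to Cpt1b had a median of 0.0722 (0.0384 to 0.155). In 8 of the 10 skin libraries the ratio was 4.32 to 15.0. Ucp2, an uncoupling protein gene of many cell types, had the highest median of the 34 in skin at 279 TPM and ranked 30 in muscle at 5.20 TPM. Its neighbour Ucp3, the muscle uncoupling protein, showed the opposite order, so that the ratio of Ucp2 to Ucp3 was 0.0750 to 0.370 in muscle and 23.8 to 154 in those 8 skin libraries. These levels set tissues side by side that were in different batches and are given as a description.

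The remaining pair of skin libraries, sham 1 and FLASH 2, held far more muscle RNA than the others, under both assignments. Their 12 fast-muscle genes summed to 32151 and 31813 CPM, against 76.8 to 4134 CPM in the other 8. In them Pdk4 stood at 383 and 646 CPM (4.85 to 78.6 in the others), Cpt1b at 74.2 and 85.3 (2.61 to 18.5), Fabp3 at 79.1 and 64.7 (0.583 to 12.2) and Ucp3 at 46.9 and 68.0 (2.16 to 12.9). Their Cpt1a to Cpt1b ratio was 0.907 and 0.881. Cpt1a and Ucp2 were not raised there: Ucp2 was 222 and 254 CPM against 253 to 566 in the others.

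**Figure D1:**
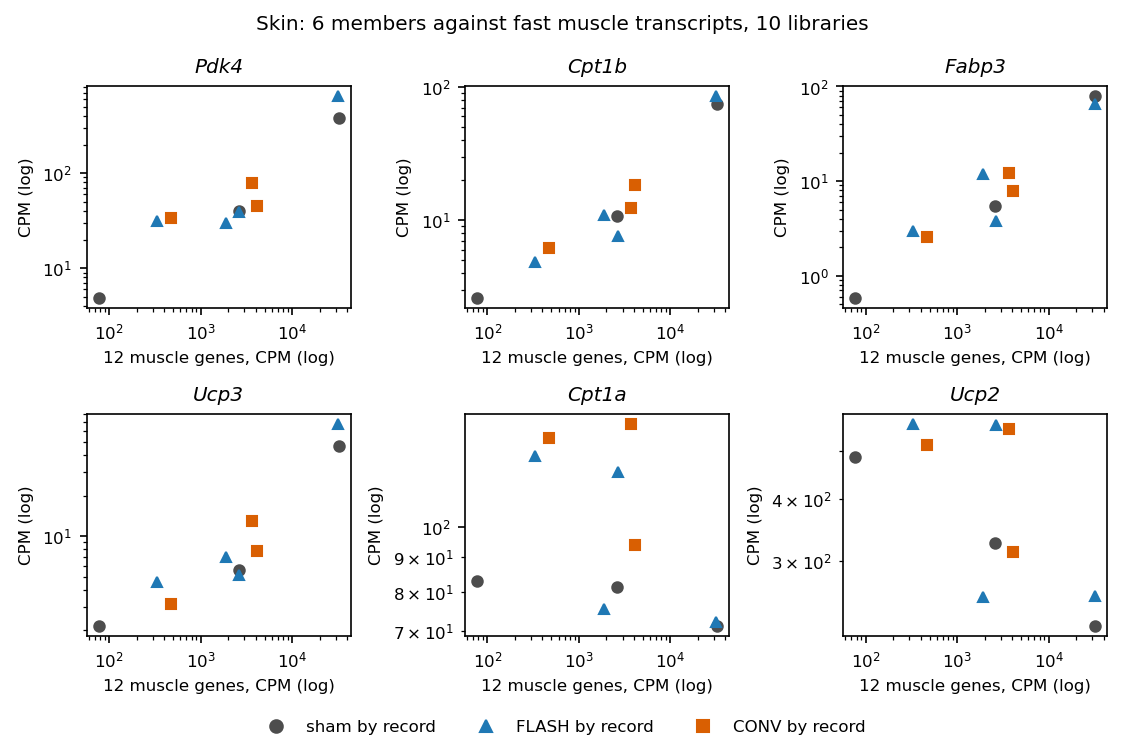
CPM of 6 members in each of the 10 skin libraries (y axis, log) against the summed CPM of 12 fast-muscle genes in the same library (x axis, log), coloured by group of record. Pdk4, Cpt1b, Fabp3 and Ucp3 were highest in the 2 libraries at the right, sham 1 and FLASH 2, and Cpt1a and Ucp2 were not.

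Promoters of Pdk4, Ucp3, Ucp2 and Plin5, which differed most clearly between muscle files by library name, are shown here, since PPARs and related receptors bind DNA elements built from the letters AGGTCA. Windows run from 250 bases before to 50 bases after the gene start (RefSeq, GRCm38.p6) and read 5′ to 3′ on the gene's strand, with AGGTCA in capitals. Pdk4 lies at chr6:5496229-5496528 (minus strand). Ucp3 (chr7:100472741-100473040, plus strand) and Ucp2 (chr7:100493108-100493407, plus strand) are neighbours, with 6905 bases between the end of Ucp3 and the start of Ucp2. Plin5 has 2 overlapping windows in the table, and the one at chr17:56117499-56117798 (minus strand) is printed. Hadhb (chr5:30155003-30155302, plus strand) is shown because its start lies 86 bases from that of Hadha, which is read in the other direction, so that the windows of the pair share 228 bases.
Pdk4: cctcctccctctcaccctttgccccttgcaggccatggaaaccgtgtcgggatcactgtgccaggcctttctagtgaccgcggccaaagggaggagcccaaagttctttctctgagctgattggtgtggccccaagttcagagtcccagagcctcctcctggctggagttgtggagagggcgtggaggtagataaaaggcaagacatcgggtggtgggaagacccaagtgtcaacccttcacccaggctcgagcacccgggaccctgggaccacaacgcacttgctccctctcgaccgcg
Ucp3: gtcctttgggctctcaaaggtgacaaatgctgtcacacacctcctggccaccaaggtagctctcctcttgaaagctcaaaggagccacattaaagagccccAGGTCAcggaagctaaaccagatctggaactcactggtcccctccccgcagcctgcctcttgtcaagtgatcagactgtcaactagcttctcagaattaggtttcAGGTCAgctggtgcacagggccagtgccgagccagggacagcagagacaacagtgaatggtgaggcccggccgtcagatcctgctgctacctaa
Ucp2: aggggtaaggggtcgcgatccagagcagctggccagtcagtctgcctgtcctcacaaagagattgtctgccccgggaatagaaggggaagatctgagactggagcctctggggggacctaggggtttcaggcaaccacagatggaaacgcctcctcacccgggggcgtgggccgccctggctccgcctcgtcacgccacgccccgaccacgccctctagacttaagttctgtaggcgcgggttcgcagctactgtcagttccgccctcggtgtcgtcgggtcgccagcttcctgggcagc
Plin5: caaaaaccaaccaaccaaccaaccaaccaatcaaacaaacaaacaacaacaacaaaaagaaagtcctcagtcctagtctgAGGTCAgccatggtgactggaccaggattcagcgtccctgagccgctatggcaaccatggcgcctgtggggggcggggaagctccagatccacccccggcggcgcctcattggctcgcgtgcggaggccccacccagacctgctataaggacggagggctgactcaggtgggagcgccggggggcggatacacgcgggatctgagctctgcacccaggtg
Hadhb: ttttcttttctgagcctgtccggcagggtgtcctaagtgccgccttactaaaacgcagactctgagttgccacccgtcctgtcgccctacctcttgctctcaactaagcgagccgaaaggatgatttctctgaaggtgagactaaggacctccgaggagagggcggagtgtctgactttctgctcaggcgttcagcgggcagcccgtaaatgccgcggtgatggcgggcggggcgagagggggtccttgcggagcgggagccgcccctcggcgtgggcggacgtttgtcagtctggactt
The Ucp3 window held AGGTCA at 149 and 44 bases before the gene start, the printed Plin5 window held it at 170 bases before, and the Pdk4, Ucp2 and Hadhb windows held none. The other Plin5 window (chr17:56117249-56117548) held it 14 bases into the gene. The letters were searched on both strands. The table held 31 windows for 29 of the 34 members, and 9 of them (29%) held AGGTCA, in Acadm, Acadvl, Cd36, Cpt1a, Echs1, Plin2, Plin5 and Ucp3, against 16.3% of all 32851 windows. AGGTCA given 2 times in a row with 1 base between, the PPAR type of repeat, was in none of the 31 and in 0.0396% of all windows, and TCAAGGTCA in none of the 31 and in 0.423% of all. Both contain AGGTCA and were searched on both strands. A match describes the letters in this window only.

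Fatty acid genes were mostly a little higher in CONV muscle than in the other 7 muscle libraries, and none passed the test. Of the 34 members, 32 had a positive log2 difference and the median was 0.24, while over all 13080 genes tested 51.3% were positive and the median was 0.01. edgeR's quasi-likelihood test with Benjamini-Hochberg adjustment called 0 of the 34 at 0.05, where it called 8 genes of all (0.0612%), and DESeq2 called 0 of the 34. At an unadjusted p under 0.05 stood 3 members, Ppara, Plin5 and Ucp2, against 11.9% of all genes. No member had all 3 CONV libraries above the other 7 or all below them (1.86% of all genes were above and 2.69% below). Leaving out 1 library at a time gave 0 (without FLASH 2 or FLASH 3) to 12 (without CONV 1) members at an unadjusted p under 0.05, and medians of 0.16 to 0.35. Pdk4 differed by 0.41 ± 0.59, Ucp3 by 0.30 ± 0.37, Acsl1, the main acyl-CoA synthetase, by 0.11 ± 0.22 and Plin2 by 0.01 ± 0.14.

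Among the regulators, Ppara, the gene of the PPARα receptor (ENSMUSG00000022383, chr15:85734983-85802819, plus strand), had the smallest p. It was 2.21, 6.53 and 4.59 CPM in sham libraries, 6.25, 3.04, 4.53 and 5.43 in FLASH and 3.94, 10.0 and 11.2 in CONV. CONV libraries 2 and 3 were the highest of the 10, and CONV 1 lay within the range of the others. The log2 difference of CONV from the other 7 was 0.86 ± 0.35 (SE, edgeR adjusted p = 0.38). Plin5, a droplet protein that docks lipid droplets to mitochondria (ENSMUSG00000011305, chr17:56111601-56117596, minus strand), was 1.82, 6.96 and 3.78 CPM in sham libraries, 4.85, 2.26, 1.85 and 3.89 in FLASH and 4.12, 7.96 and 8.69 in CONV. It too was highest in CONV 2 and 3, with sham 2 next, and differed by 0.93 ± 0.39 (edgeR adjusted p = 0.392). Ppargc1a, the gene of PGC-1α, was 54.1 CPM in CONV 2 and 21.7 to 30.6 CPM in the other 9 libraries. Ppard, the gene of PPARδ, was the steadiest member, at 13.6 to 16.9 CPM over the 10 libraries, and differed by -0.01 ± 0.10.

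The uptake genes showed the same split within CONV. Lpl was 109, 360 and 376 CPM in CONV, 75.9, 198 and 159 in sham and 273, 101, 77.7 and 133 in FLASH. Fabp3 was 67.3, 217 and 211 CPM in CONV, against 43.6 to 143 in the other 7. Cd36 was 62.3, 148 and 137 CPM in CONV, against 50.8 to 128. In each of the 3 genes CONV 2 and 3 were the highest libraries and CONV 1 lay among the rest. Their log2 differences were 0.97 ± 0.50 for Lpl, 0.92 ± 0.48 for Fabp3 and 0.55 ± 0.35 for Cd36 (edgeR adjusted p = 0.484, 0.49 and 0.567). Angptl4 was the exception: it was 8.33 CPM in CONV 1 and 0.926 to 3.36 CPM in the other 9 libraries, and differed by 1.03 ± 0.53.

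Slow-fibre genes moved with this split within CONV. The 8 slow-muscle genes taken as markers, among them the slow myosin Myh7 and the slow troponins, summed to 29.8, 3402 and 1328 CPM in CONV, against 13.1 to 715 CPM in the other 7, and none of the 8 was at 0. Sham 2 did not follow it: it was above CONV 2 for 20 members, but its Myh7 was 3.99 CPM, against 12.1, 2137 and 811 in CONV. All 8 had a positive log2 difference (median 2.89) and none passed the test, while the 12 fast-muscle genes were all lower (median -0.25). The 12 adipocyte genes summed to 78.6 to 160 CPM in CONV and 68.8 to 107 in the other 7. The 10 neutrophil genes summed to 5.12 to 9.48 CPM in CONV and 2.49 to 3.91 in the other 7, with 1 to 4 and 4 to 7 of them at 0. Macrophage genes were positive for 9 of 9 tested (median 0.35) and summed to 62.7 to 83.9 CPM in CONV against 26.7 to 82.4. Fibroblast genes were negative for 9 of 10 (median -0.54) and summed to 400 to 468 CPM against 419 to 980. The part of these cell types in the members' differences was not tested. With the slow-muscle score of each library as a covariate, the log2 difference was 0.44 ± 0.35 for Ppara, 0.57 ± 0.42 for Plin5 and 0.24 ± 0.38 for Lpl.

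The enzymes of the spiral itself differed less. In the carnitine shuttle, Cpt1b differed by 0.04 ± 0.14, Cpt2 by 0.23 ± 0.20, the carnitine-acylcarnitine carrier Slc25a20 by 0.20 ± 0.16 and Cpt1a by 0.23 ± 0.31. The 4 acyl-CoA dehydrogenases, which take the first step for chains of different length, ranged from -0.11 ± 0.14 for the short-chain Acads to 0.29 ± 0.35 for the long-chain Acadl. Hadha and Hadhb, the 2 subunits of the trifunctional protein that completes the cycle for long chains, differed by 0.39 ± 0.18 and 0.34 ± 0.19. Hadha was 89.1, 137 and 96.9 CPM in sham libraries, 134, 81.2, 97.2 and 100.5 in FLASH and 97.9, 148 and 162 in CONV. Hadhb was 70.4, 106 and 81.1 CPM in sham libraries, 110, 65.7, 77.1 and 84.7 in FLASH and 73.1, 117 and 131 in CONV. The 10 libraries thus came in much the same order for the 2 genes, and the TPM ratio of Hadha to Hadhb stayed between 0.870 and 0.985. The matrix enzymes Hadh, Echs1 and Acaa2 differed by 0.10 to 0.45, the isomerases and the reductase for unsaturated chains (Eci1, Eci2, Decr1) by 0.16 to 0.25, and Etfa, Etfb and Etfdh, which hand electrons to ubiquinone, by 0.16 to 0.24.

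**Figure D2:**
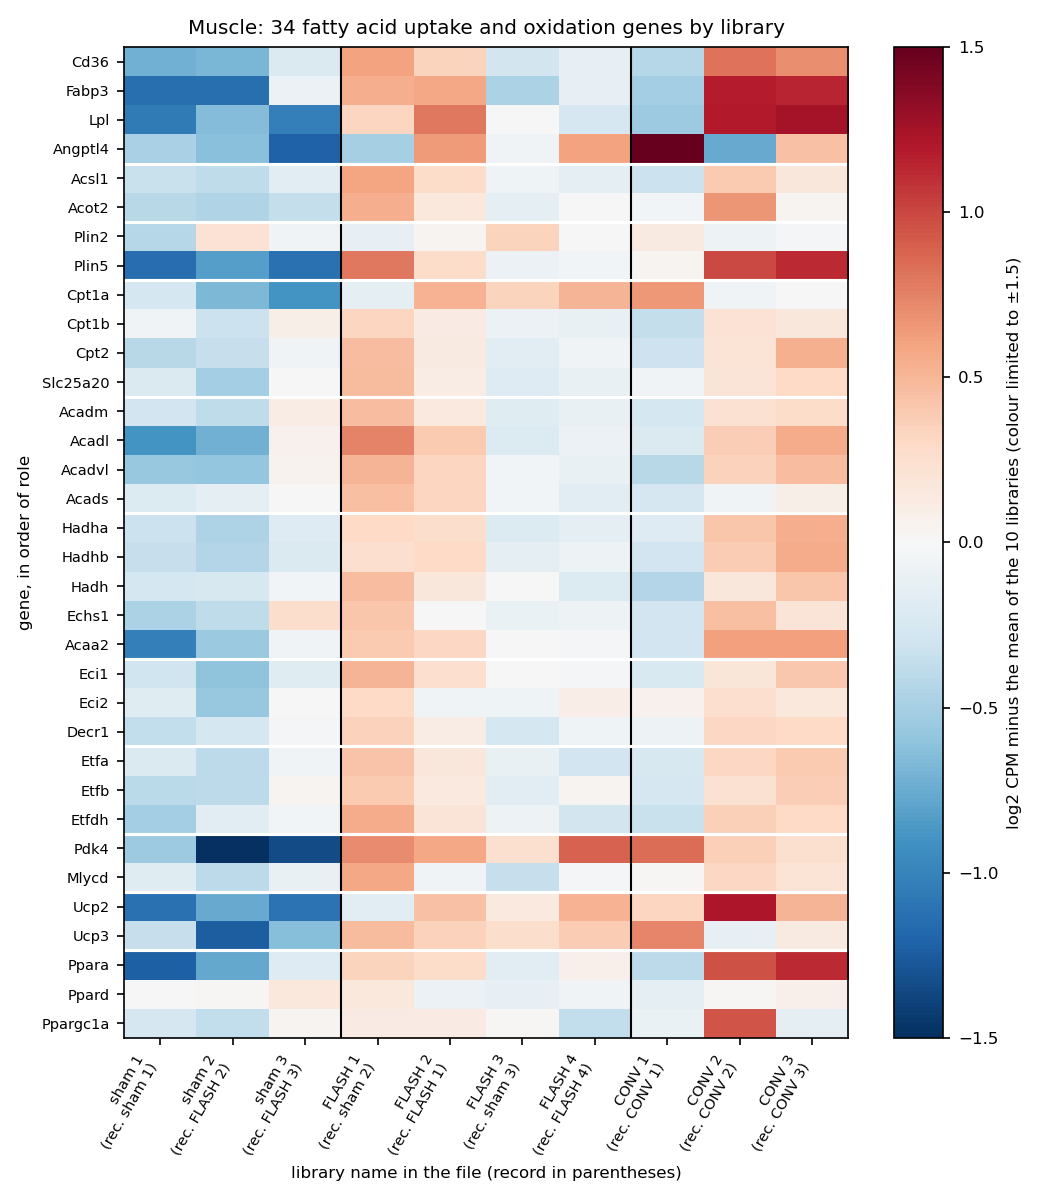
All 34 members in the 10 muscle libraries, in order of role, as log2 CPM minus the member's mean over the 10 libraries. Columns are ordered by library name, with the record in parentheses, and libraries are numbered here by record. CONV 2 and 3 were above the member's mean for 29 and 32 of the 34, sham 2 and FLASH 1 for 30 each and CONV 1 for 9. Sham 1, FLASH 2 and FLASH 3 were above it for 0, 2 and 9, and sham 3 and FLASH 4 for 8 each. Sham 2 was above CONV 2 for 20 members.

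Compared with the recorded sham libraries alone, CONV muscle had no called member either. The log2 difference was positive for 31 of 34 members (median 0.18), edgeR called 0 (0.00765% of all genes), none had an unadjusted p under 0.05 (10% of all genes) and DESeq2 called 0. The median rested on single libraries: it was 0.01 with 20 positive without sham 1, 0.46 with 34 positive without sham 2, 0.32 without CONV 1 and 0.10 without CONV 2. Ucp2 (ENSMUSG00000033685, chr7:100493337-100502020, plus strand) stood at 3.16, 6.19 and 7.65 CPM in the sham libraries, at 9.38, 4.08, 3.19 and 9.87 in the FLASH libraries and at 8.59, 16.0 and 9.82 in the CONV libraries. All 3 CONV libraries were above all 3 sham libraries, which 6.96% of genes showed, and the log2 difference was 1.03 ± 0.49 (edgeR adjusted p = 0.536). FLASH muscle differed from recorded sham muscle by a median of -0.08, with 9 of 34 positive, and edgeR called no member and no gene (0%), with 0 members at an unadjusted p under 0.05 (2.5% of all genes) and 0 called by DESeq2. The direction of each of the 34 turned under at least 1 other setting, and the median was -0.24 without sham 1, 0.16 without sham 2 and 0.02 without FLASH 2. The smallest p were those of Mlycd, which degrades the shuttle inhibitor malonyl-CoA (-0.22 ± 0.19), and Eci2 (-0.15 ± 0.15), each with an adjusted p of 0.999 by edgeR. Between FLASH and CONV muscle, 31 of 34 were lower in FLASH (median -0.30, and -0.19 without FLASH 2 or without CONV 3), edgeR called 0 members against 0.00765% of all genes, 1 had an unadjusted p under 0.05 (8.3% of all genes) and DESeq2 called 0. Plin5 differed by -1.10 ± 0.46 (adjusted p = 0.581) and Eci2 by -0.28 ± 0.15 (adjusted p = 0.625), by edgeR. Mlycd was 23.7, 29.0 and 27.0 CPM in CONV and 17.9 to 22.9 in FLASH, and was the only member with all FLASH libraries below all CONV libraries (3.98% of all genes were). By record, irradiated against sham muscle had the smallest p for Angptl4 (0.85 ± 0.65) and Ucp2 (0.63 ± 0.49), with an edgeR adjusted p of 0.97 for each. These comparisons share their sham or CONV libraries.

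Assigned by library name, the same muscle files gave another picture of sham. Of the 34 members, 33 were higher in the 7 irradiated libraries than in the 3 named sham (median log2 difference 0.48), against 52.7% of all genes (median 0.01). By record the counts were 20 of 34 and a median of 0.05, which went to -0.13 without sham 1 and 0.32 without sham 2. edgeR called 0 of the 34 under either assignment (0% of all genes by record, 0.0306% by name). At an unadjusted p under 0.05 stood 23 members by name against 13.6% of all genes, and 0 members by record against 3.76%. The 23 went to 12 without named sham 1 and 10 without named sham 2. DESeq2 called 6 members by name, Cpt1a, Pdk4, Ucp2, Ucp3, Plin5 and Lpl (0.696% of all genes), and 0 by record. Without the 5 files of another name, 33 of 34 were positive with a median of 0.55. That fit had 1 sham library, sham 1, and 1 FLASH library, assumed to vary like the rest. Which assignment is right is not given in the sources used here.

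Pdk4 and the uncoupling protein genes separated the files named sham from the rest. Pdk4 (ENSMUSG00000019577, chr6:5483351-5496309, minus strand) was 206, 488 and 354 CPM in the libraries recorded as sham, 447, 76.4, 118 and 552 in those recorded as FLASH and 533, 382 and 353 in CONV. The 3 lowest, recorded as sham 1, FLASH 2 and FLASH 3, were the 3 files named sham, and the other 7 lay at 353 or above. The log2 difference of irradiated from sham was 1.75 ± 0.30 by name and 0.02 ± 0.62 by record (edgeR adjusted p = 0.0809 and 0.999). Ucp3 (ENSMUSG00000032942, chr7:100472990-100486432, plus strand) was 25.6, 38.8 and 47.5 CPM in the 3 named sham and 55.4 to 100.4 in the other 7, a difference of 1.04 ± 0.20 by name and -0.10 ± 0.39 by record. Ucp2 was 3.16, 3.19 and 4.08 CPM in the 3 named sham and 6.19 to 16.0 in the other 7, a difference of 1.47 ± 0.27 by name and 0.63 ± 0.49 by record (edgeR adjusted p = 0.0809 and 0.97). Plin5 was 1.82 to 2.26 CPM in the 3 and 3.78 to 8.69 in the 7.

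**Figure D3:**
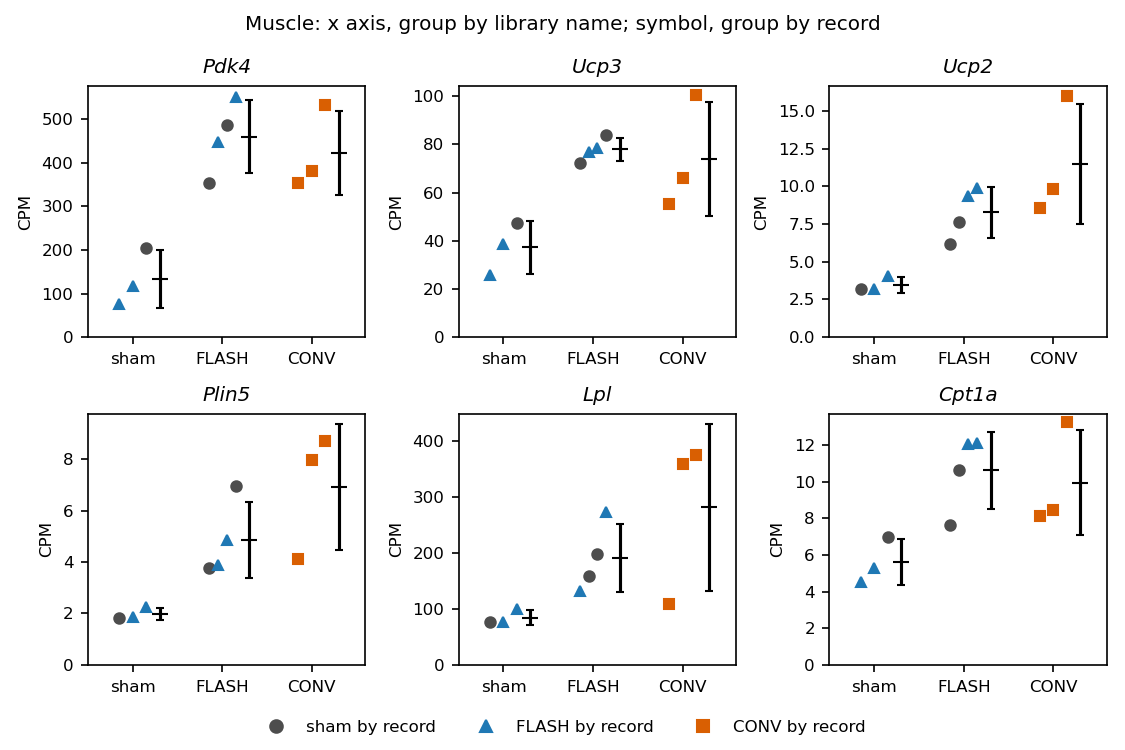
CPM in muscle of members that differed between the assignments, one point per library, with mean and SD of each group by library name. Points are placed by group of library name (x axis) and marked by group of record (symbol). Pdk4, Ucp2, Ucp3 and Plin5 had their 3 lowest libraries in the files named sham, which carry the symbols of 2 recorded groups.

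In all, 7 members had every irradiated library above every sham library by name: Plin5, Lpl, Pdk4, Acot2, Cpt1a, Ucp3 and Ucp2. None was below. Of all genes, 2.4% were above and 3.15% below. By record no member was above, with 0.742% of all genes. Acot2, a mitochondrial acyl-CoA thioesterase whose reads can be divided with its near-identical neighbour Acot1, was 6.95 to 7.41 CPM in the 3 named sham and 8.63 to 15.1 in the 7. Cpt1a was 4.53 to 7.00 CPM in the 3 and 7.63 to 13.2 in the 7. The steady member under both assignments was Ppard, at 15.6 ± 0.98 CPM in named sham (SD, n = 3) and 14.9 ± 1.18 in the irradiated libraries (n = 7), and it was the only member with a negative difference by name.

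**Figure D4:**
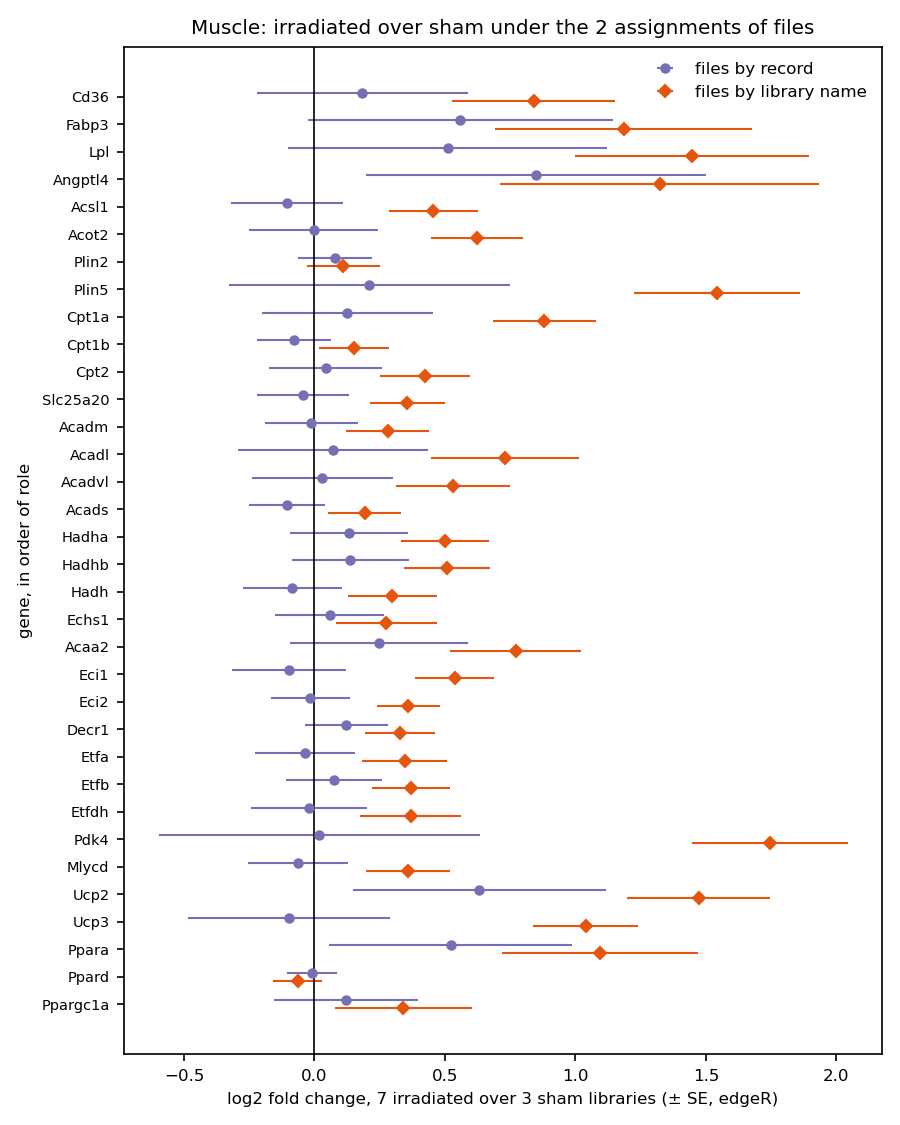
Log2 fold change of 7 irradiated over 3 sham muscle libraries for all 34 members in order of role (points, bars ± SE from edgeR), with files by record and by library name. By name 33 members lie above 0, with Pdk4 at 1.75, and by record 20 do, with Pdk4 at 0.02.

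Among the muscle comparisons, under either assignment, edgeR called members in CONV against named sham: Ucp2 rose by 1.73 ± 0.26 and Plin5 by 1.82 ± 0.31 on the log2 scale (Benjamini-Hochberg adjusted p = 0.0138 and 0.0208), where 164 genes or 1.25% were called. At an unadjusted p under 0.05 stood 19 members (16.6% of all genes), and 10 had all CONV libraries above all named sham (9.42% of all genes). By record their differences were 1.03 ± 0.49 and 0.73 ± 0.49 and neither was called. Leaving out 1 library at a time moved the count between 0 (without named sham 3) and 11 (without CONV 1). Without named sham 1 only Pdk4 was called, and without named sham 2, CONV 2 or CONV 3 only Ucp2. DESeq2 called 8 members (2.06% of all genes). FLASH against named sham gave 33 of 34 positive (median 0.41) with 0 called by edgeR (0% of all genes), 14 at an unadjusted p under 0.05 (9.89%) and 4 called by DESeq2 (0.178% of all genes), and 12 had all FLASH libraries above all named sham (4.84%). FLASH and CONV, both set against the same 3 named sham, gave Pdk4 differences of 1.79 ± 0.34 and 1.68 ± 0.35, Ucp3 of 1.07 ± 0.23 and 1.00 ± 0.24, and Cpt1a of 0.92 ± 0.22 and 0.83 ± 0.24. Between FLASH and CONV by name the median was -0.08 and edgeR called no member (0.00765% of all genes), with 1 at an unadjusted p under 0.05.

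Fibre-type and macrophage genes are given beside these values. The 12 fast-muscle genes summed to 84067 to 107550 CPM in named sham, 74079 to 83360 in named FLASH and 61029 to 88289 in CONV, with 1 of 12 positive in irradiated against named sham (median -0.33) and none called. Their mean log2 CPM was 12.10 to 12.18 in the 3 named sham and 11.58 to 12.04 in the other 7, without overlap. In CONV against named sham 1 of the 12 was called lower. The 8 slow-muscle genes summed to 13.1 to 81.0 CPM in named sham, 33.4 to 715 in named FLASH and 29.8 to 3402 in CONV. The 10 macrophage genes summed to 26.7 to 60.9 CPM in named sham, 57.2 to 82.4 in FLASH and 62.7 to 83.9 in CONV. All 8 slow-muscle genes and the 9 macrophage genes tested were positive in irradiated against named sham and none was called, and 2 macrophage genes were called in CONV against named sham. All 3 kinds of sum overlapped between named sham and the irradiated libraries. With the slow-muscle score as a covariate, edgeR called none of the 34 in irradiated against named sham, 11 had an unadjusted p under 0.05, and the difference was 1.90 ± 0.33 for Pdk4, 1.29 ± 0.17 for Ucp3, 1.06 ± 0.21 for Ucp2 and 1.25 ± 0.33 for Plin5. Lpl went from 1.45 ± 0.45 to 0.75 ± 0.31 and Fabp3 from 1.18 ± 0.49 to 0.71 ± 0.56. For CONV against named sham the count went from 2 to 0 with this covariate, with 8 at an unadjusted p under 0.05. The part of fast-fibre and macrophage RNA in these differences was not tested.

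Other genes of lipid metabolism were counted from lists by pathway. In CONV against the other 7 muscle libraries, 1 of the 20 tested regulator genes passed and none of the 16 further mitochondrial matrix genes, 16 peroxisomal genes, 25 uptake and storage genes, 6 ketone body genes or 11 fatty acid synthesis genes. The gene that passed was Nrip1, a corepressor of nuclear receptors that restrains oxidative genes. It was 46.6, 61.9 and 45.1 CPM in CONV and 26.9 to 36.8 CPM in the other 7, and rose by 0.71 ± 0.12 (edgeR adjusted p = 0.0475). No list had a gene called in the other muscle comparisons by record. In CONV against named sham, Nrip1 (0.72 ± 0.15), the fatty acid transporter Slc27a1 (0.82 ± 0.17) and the droplet protein Plin4 (1.24 ± 0.24) rose. Vldlr, a receptor for triglyceride-rich lipoproteins (-0.88 ± 0.19), and Pcca, a propionyl-CoA carboxylase subunit (-0.71 ± 0.16), fell, with edgeR adjusted p of 0.0351 to 0.0449.

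In skin, Ppard was high and Ppara low in CONV libraries, and neither passed edgeR's threshold. Ppard (ENSMUSG00000002250, chr17:28232700-28301474, plus strand) was 33.8, 43.3 and 52.2 CPM in the sham libraries, 39.2, 45.7, 59.1 and 90.8 in FLASH and 93.1, 147 and 128 in CONV. The 3 CONV libraries were above the other 7, which 3.73% of genes showed, with FLASH 4 just below CONV 1. The log2 difference of CONV from the other 7 was 1.25 ± 0.27 (edgeR adjusted p = 0.051). Ppara was 19.5, 15.8 and 17.8 CPM in sham libraries, 18.2, 22.7, 9.20 and 6.66 in FLASH and 6.83, 7.27 and 4.80 in CONV. All sham libraries were above all CONV libraries, FLASH 4 lay among the CONV values, and the difference from the other 7 was -1.31 ± 0.37 (edgeR adjusted p = 0.0913). The TPM ratio of Ppard to Ppara thus ran from 1.31 to 22.3 over the 10 skin libraries.

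Plin2, the droplet coat protein of most cell types, and Angptl4 were high in most CONV skin. Plin2 was 49.7, 33.4 and 28.4 CPM in sham libraries, 38.5, 39.5, 46.2 and 103 in FLASH and 76.2, 99.3 and 150 in CONV. FLASH 4 lay within the CONV range and the other 6 lay below it. Angptl4 was 19.3, 12.9 and 9.31 CPM in sham libraries, 22.7, 14.1, 24.4 and 45.6 in FLASH and 70.0, 14.8 and 126 in CONV, with CONV 2 among the sham values. The log2 differences of CONV from the other 7 were 1.17 ± 0.36 for Plin2 and 1.73 ± 0.56 for Angptl4 (edgeR adjusted p = 0.11 and 0.12). edgeR called 0 of the 34, where it called 331 genes (1.65%), and 5 stood at an unadjusted p under 0.05 against 23.4% of all genes. DESeq2 called 4, Ppard, Ppara, Plin2 and Angptl4. It called 7.26% of the 28035 genes with any count, a larger set than the 20026 that edgeR tested. Without FLASH 4 edgeR called the same 4 genes, with Ppard at 1.44 ± 0.19 (adjusted p = 0.00546), and without CONV 1 it called Ppard alone (adjusted p = 0.0286).

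**Figure D5:**
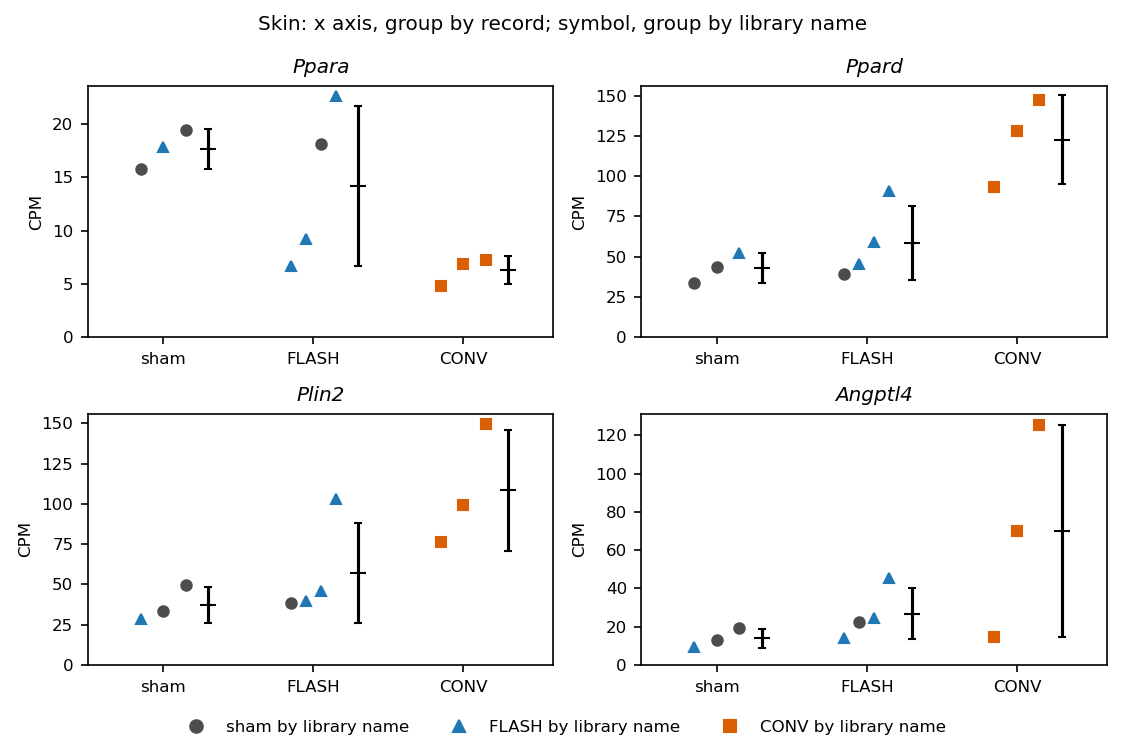
CPM of Ppara, Ppard, Plin2 and Angptl4 in skin, one point per library, by group of record (x axis) and library name (symbol), with mean and SD of each recorded group. CONV libraries were high for Ppard (93.1 to 147) and low for Ppara (4.80 to 7.27), and FLASH 4 lay at or next to the CONV values.

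Inflammatory and fibroblast genes moved with these values. The 10 neutrophil genes summed to 226 to 845 CPM in CONV skin, 119 in FLASH 4 and 25.3 to 48.2 in the other 6. Macrophage genes summed to 538 to 1365 CPM in CONV, 633 in FLASH 4 and 223 to 490 in the other 6. Fibroblast genes summed to 15494 to 46381 CPM in CONV against 8178 to 12535 in the other 7. Endothelial genes summed to 320 to 868 CPM in CONV against 122 to 340, and 10 of 10 had a positive difference (median 0.98). Keratinocyte genes spread on both sides, at 8724 to 47548 CPM in CONV against 11457 to 20446. The part of these cell types in the Ppard, Ppara, Plin2 and Angptl4 differences was not tested. Without the 2 muscle-rich libraries the differences were 1.07 ± 0.28 for Ppard, -1.13 ± 0.36 for Ppara and 1.08 ± 0.43 for Plin2. Without the 2 skin files of another name, Ppard differed by 1.18 ± 0.31 (edgeR adjusted p = 0.238).

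Oxidation enzymes showed smaller differences than Ppard in CONV skin, and none passed the test. Slc25a20 lay between 61.6 and 77.0 CPM in all 10 libraries and differed by 0.02 ± 0.11, Hadha by 0.10 ± 0.15 and Hadhb by -0.24 ± 0.19. Over the 34 members 13 differences were positive and 21 negative (median -0.20, against 0.00 over all 20026 genes). Without the 2 muscle-rich libraries 20 were positive and the median was 0.07, and it was -0.12 without FLASH 2 and -0.10 without CONV 3. Etfb differed by 0.60 ± 0.26 (edgeR adjusted p = 0.195), and it was 41.1 CPM in CONV 2 and 14.7 to 22.8 CPM in the other 9. The muscle-type genes Cpt1b, Pdk4, Ucp3 and Fabp3 differed by -1.17 to -1.67 with errors of 1.11 to 1.39, and by 0.60 to 0.83 without the 2 muscle-rich libraries, so that their direction turned on those libraries.

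Against recorded sham skin alone, CONV skin gave Ppard at 1.52 ± 0.33, Plin2 at 1.55 ± 0.43, Ppara at -1.48 ± 0.43 and Angptl4 at 2.35 ± 0.70 (edgeR adjusted p = 0.127 to 0.146). edgeR called 0 members and 0% of genes, 6 members stood at an unadjusted p under 0.05 against 20.1% of genes, and DESeq2 called the same 4 (5.62% of all genes). Besides Ppard and Plin2, all CONV libraries were above all sham libraries for Eci2 (69.3 to 82.2 against 49.9 to 59.6 CPM) and Cpt1a (94.0 to 142 against 71.2 to 83.0), where 13.2% of all genes showed this. They were below for Ppara, Eci1 and Echs1 (14.9% of all genes). FLASH skin differed from sham skin by a median of 0.03, which was 0.32 without sham 1, -0.10 without sham 2, -0.11 without sham 3 and -0.15 without FLASH 2. From CONV skin it differed by a median of 0.17, which was -0.06 without FLASH 2, 0.28 without CONV 2 and 0.10 without CONV 3. edgeR called 0 members and 0% of genes in each, with 0 and 4 members at an unadjusted p under 0.05 (0.659% and 12.7% of all genes), and DESeq2 called 0 in each. In FLASH against CONV skin, Ppard differed by -1.07 ± 0.30 and Ppara by 1.16 ± 0.40 (edgeR adjusted p = 0.27 and 0.319). In FLASH against sham skin, Eci2 differed by 0.28 ± 0.15 and Plin2 by 0.61 ± 0.40 (edgeR adjusted p = 1). In irradiated against sham skin, 0 members were called (0% of genes), 4 stood at an unadjusted p under 0.05 (3.32%), DESeq2 called 0, and Eci2 (0.36 ± 0.15) and Ppard (1.01 ± 0.42) had the smallest p (edgeR adjusted p = 0.8). By library name edgeR also called 0 of the 34 in each skin comparison. Against named sham, all CONV libraries were above for the same 4 members (16.3% of all genes) and below for 6, with Cd36, Lpl and Ppargc1a added to the 3 by record (18.4% of all genes). Ppard was the only member with all FLASH libraries above all named sham (3.82% of all genes) and the only one with all irradiated libraries above (2.51%).

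Lpl and Cd36, which fat cells also make, were even across CONV skin and uneven in the rest. Lpl was 1179, 273 and 89.6 CPM in sham libraries, 594, 342, 112 and 299 in FLASH and 156, 165 and 173 in CONV. Cd36 was 323, 88.8 and 35.2 CPM in sham libraries, 238, 130, 42.9 and 134 in FLASH and 64.3, 53.5 and 69.3 in CONV. By record, sham and FLASH libraries lay on either side of the CONV values for both genes. By library name the sham files were those recorded as sham 1, sham 2 and FLASH 1, and all 3 lay above all CONV libraries for both. The 12 adipocyte genes summed to 155 to 1205 CPM in sham libraries, 156 to 977 in FLASH and 178 to 444 in CONV. By library name they summed to 432 to 1205 CPM in sham and 155 to 498 in FLASH, so that named sham and CONV overlapped only narrowly. With the adipocyte score as a covariate, the difference of CONV from the other 7 was -0.03 ± 0.39 for Lpl and -0.05 ± 0.39 for Cd36, against -1.32 ± 0.73 and -1.18 ± 0.65 without it.

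The CONV response of skin was set against that of muscle over all 20 libraries, each as CONV against the other 7 of its tissue. The difference (skin minus muscle) was negative for 27 of 34 members with a median of -0.55, against a median of 0.02 over 19199 genes. The median was -0.33 without muscle CONV 2 and -0.35 without skin CONV 3. Both muscle-rich skin libraries were among the other 7, and it was -0.40 without skin sham 1 and -0.41 without skin FLASH 2. Marker genes moved the same way: 11 of 12 fast-muscle genes (median -1.33), 8 of 8 slow-muscle genes (-3.57) and 11 of 11 adipocyte genes (-2.08) were negative. Macrophage, neutrophil and fibroblast genes were all positive (medians 1.07, 2.58 and 1.85). Their part in the members' differences was not tested. edgeR called 0 members (0.109% of genes) and 7 had an unadjusted p under 0.05, against 16.4% of genes. DESeq2 called Ppara and Ppard (1.74% of genes). Ppara differed by -2.14 ± 0.52 and Ppard by 1.28 ± 0.32 (edgeR adjusted p = 0.0835 for each), and Plin2 by 1.18 ± 0.43 (edgeR adjusted p = 0.189). Without skin FLASH 4 all 3 were called, and without skin CONV 1 Ppard was called. In the lists of other lipid genes edgeR called none in skin or between the tissues.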

How the data were processed

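RNA of 20 bulk libraries, depleted of ribosomal RNA, was sequenced, per the labels' protocols. For each transcript the authors deposited an estimated count, not normalized, and a TPM value, both from kallisto 0.5.0 with mm10, per the submitters' processing notes. Which annotation release they used is not given in the sources used here. Estimated counts were summed to 35579 genes by transcript identifier without version in GENCODE M21 (114322 of 116116 transcripts matched, 98.5%), and rounded. Unmatched transcripts held 0.873% to 1.85% of counts. kallisto divides reads between similar transcripts, so near-identical copies are uncertain.

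Tests were edgeR's quasi-likelihood test (edgeR 4.0.16, limma 3.58.1, R 4.3.3) with robust dispersion, TMM scaling and filterByExpr, Benjamini-Hochberg adjustment over all genes tested and a threshold of 0.05. Groups of a tissue were fitted together, except that CONV against the other 7, and irradiated against sham, were fits of 2 groups. The script was tested on simulated data. CPM values are TMM-scaled within a tissue. DESeq2 1.42.0 was an alternative, with other scalings and filters, a replicate block, covariates of muscle and adipocyte scores, files by library name, and each library left out in turn. Shares of all genes called by DESeq2 are over genes with any count: 28035 in skin, 22974 in muscle and 28456 over both tissues. Those are larger sets than edgeR tested, so the shares of the 2 methods are not alike. Replicates within a group differed by 7.78 to 402 in chi-square per degree of freedom, more than repeated counts of the same library would. The highest value was between skin FLASH 2, which is muscle-rich, and FLASH 4. All libraries were kept, and this comparison does not test whether each is sound.

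Members and lists were chosen with earlier results of these data known. All 34 members are named by role. Full values are given for members past the threshold and, where none passed, for the 2 of smallest p, and for others chosen after their values were seen. Other pathway genes are named where they passed. The slow-muscle covariate, the fits without the muscle-rich skin libraries and the alternatives by library name were chosen after seeing the data. A count of few reads is limited by sampling: Angptl4 had as few as 9 counts in a muscle library.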

Additional observations from a re-analysis of the deposited data

Results flagged for a closer look

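In skin, 6 members had a single FLASH library far from the other 3 of its recorded group, by Dixon's test at the 95% level over 68 groups of 4. Chance alone gives about 1 in 20 such groups. FLASH 2, 1 of the 2 muscle-rich skin libraries, was the high one for 5 of them. Cpt1b was 85.3 CPM there against 4.83 to 10.9 in the other 3, Pdk4 646 against 30.1 to 39.3, Ucp3 68.0 against 4.56 to 7.05, Fabp3 64.7 against 2.98 to 12 and Acadvl 76.6 against 41.1 to 47.0. FLASH 4 was the high one for Plin2, at 103 CPM against 38.5 to 46.2. That library also had the highest sum of neutrophil genes, 119 CPM, among the 7 sham and FLASH skin libraries.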

How the results depend on the processing

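With files assigned by library name, the members called in CONV against sham muscle went from 0 to 2. In skin, CONV against the other 7 gave 0 called members, but 4 with DESeq2, 1 with no low-count filter, 1 with the fast-muscle covariate, and 0 to 4 with each library left out (4 without FLASH 4, 1 without CONV 1). CONV against sham skin gave 0, but 4 with DESeq2 and 0 to 1 with each library left out (1 without FLASH 4). In muscle by name, CONV against sham gave 2, but 8 with DESeq2, 0 with the slow-muscle covariate and 0 to 11 with each library left out. FLASH against sham by name gave 0, but 4 with DESeq2, 1 with no low-count filter and 0 to 1 with each library left out (1 without named sham 1). Irradiated against sham by name gave 0, but 6 with DESeq2, 1 with no filter and 0 to 2 with each library left out (2 without named FLASH 1, and 1 without named sham 1 or CONV 2). The skin minus muscle difference gave 0, but 2 with DESeq2 and 0 to 3 with each library left out. The cause of these changes was not tested. The log2 difference took the other sign under at least 1 alternative, files by library name among them, for 9 of the 34 members in CONV against the other 7 in muscle, 20 in CONV against sham, all 34 in FLASH against sham, 13 in FLASH against CONV and 30 in irradiated against sham. In skin the counts were 12, 15, 22, 15 and 18 in the same order, and 5 for skin minus muscle. With sham muscle files by name they were 3 for CONV, 1 for FLASH and 1 for irradiated against sham. Neither called member, Ucp2 or Plin5, was among the 3.

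Replicate numbers are shared between groups, but same-numbered samples did not deviate together: correlations were -0.235 to 0.213 in muscle and -0.711 to 0.517 in skin, and 2 of 18 and 3 of 18 sample comparisons were best with the own number. With the replicate number as a block, CONV against the other 7 in skin gave 3 called members (Plin2, Ppara, Ppard) in place of 0, and irradiated against named sham muscle gave 3 (Pdk4, Ucp2, Ucp3) in place of 0. In CONV against named sham muscle it gave 3 (Pdk4, Ucp2, Ucp3) in place of 2, and Plin5 was no longer called. The block moved no other count of called members by more than 1.5 times. Only FLASH had a library 4, so the block gave that library a term of its own and in effect left it out. These counts therefore cannot tell an effect of shared numbers from the loss of that library.

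Without the 5 muscle libraries of disagreeing name, only sham 1 and FLASH 4 were left in those groups. The median over the 34 members was then 0.61 for CONV against sham and 0.38 for FLASH against sham. Both rest on sham 1, which was above the member's mean over the 10 libraries for 0 of the 34. Over libraries left out in turn by record, the median for irradiated against sham muscle ran from -0.13 to 0.32.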
